A study of Mus musculus with 24 samples.

Results

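The hippocampus of handled mice aged 16 months was compared with that of handled mice aged 3 months. This age comparison without training used 8 of the 24 arrays of the study, 4 per age, chosen by their titles. Each array held labelled RNA from the hippocampus of 1 mouse, and every gene was read by a DNA probe whose fluorescence follows the amount of RNA. All mice were labelled as strain C57Bl/6, with no transgene or gene deletion given. The 3-month and 16-month controls were naive mice that were handled and went through no behavioural test. The other arrays held mice of both ages taken 1 h after fear conditioning (3 min in a new chamber, then a foot shock of 0.7 mA for 2 s). They also held further 3-month groups, titled young_context and young_shock_red and likewise taken at 1 h. These further groups enter only the estimate of the spread. The labels give neither sex, substrain nor supplier. A difference in substrain or supplier between the age groups cannot be told apart from age. Sex was not tested, and levels of sex-linked genes are given below.

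The hippocampus stores new memories of places and events. With age its microglia, the resident immune cells, commonly take up a primed state, and complement, a protein cascade that tags cells and synapses for removal, is known to rise in the aging rodent brain. Astrocytes and myelin-forming oligodendrocytes also change with age, while the birth of new neurons in the dentate gyrus declines early in adult life.

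Levels are log2 signals relative to the 75th percentile of the same array, so 0 marks that percentile and a difference of 1 is a doubling. The 75th percentile of signal ran from 892.3 to 1361 in the young and from 756.6 to 1667.4 in the old arrays, and 89.0 to 91.7% and 86.6 to 92.5% of probes were well above background. In the further 3-month groups, which lay on other slides, the same values were 3100.6 to 8368.9 and 75.5 to 81.7%. All 9 markers of hippocampal neurons (among them Prox1 of the dentate gyrus and Wfs1 of field CA1) were well above background on all 8 arrays, and 0 of them passed the test described below. Some arrays of a group lay closer together than others. In the young group the median absolute difference was 0.19 between arrays 1 and 2, 0.24 between 3 and 4, and 0.25 to 0.35 across the pairs. In the old group arrays 3 and 4 differed by 0.16, but arrays 1 and 2 by 0.31, against 0.21 to 0.36 across the pairs. Old array 2 stood apart, with a median absolute difference of 0.30 from the rest of its group against 0.16 to 0.27 for the other 7 arrays. Precision is limited by the number of arrays, and p-values that treat 4 arrays as independent may be too small where pairs lie close.

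The strongest immune gene was C4b, one of a pair of neighbouring complement genes, so the probes of both are shown to make clear what was measured. All lie on the minus strand of chromosome 17 in build mm9 and are printed 5′ to 3′ from the deposited scanner files with no letters marked. Neither C4a probe shares a run of more than 5 bases with the C4b probe. The C4b probe lies at chr17:34866361-34866420, and the C4a probes at chr17:34952046-34952107 and chr17:34958899-34958958.
C4b: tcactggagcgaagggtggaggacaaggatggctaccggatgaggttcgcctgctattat
C4a, first probe: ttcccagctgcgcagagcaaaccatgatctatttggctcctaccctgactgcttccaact
C4a, second probe: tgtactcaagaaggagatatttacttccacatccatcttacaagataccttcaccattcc
Transcript sequences were not used here, so whether RNA of C4a also binds the C4b probe was not tested.

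Of 26089 genes tested, 124 rose (0.475%) and 66 fell (0.253%) at 16 months, 190 in all (0.728%; limma, Benjamini-Hochberg adjusted p under 0.05). The 4 old arrays did not overlap the 4 young arrays for 614 genes that lay higher (2.35%) and 432 that lay lower (1.66%). Of the 190 genes past the threshold, 187 showed such separation, 122 upward and 65 downward. Each slide carried 1 array of each age, and 189 of the 190 had the same sign on all 4 slides, as had 3765 of all 26089 genes. The 190 were chosen by a test on these same arrays. Their separation and their signs follow largely from that choice and add no separate support. The median size of the change among the 190 was 0.69, and 50 changed by more than 1. The threshold was passed by 41 genes when arrays 1 and 2, and arrays 3 and 4, of a group were entered as pairs in a random block, by 4 when the pairs were averaged, by 13 when only the 8 control arrays were fitted, and by 16 with normexp background correction. Without 1 array the count ran from 86 to 285, at 101 without young array 2, 96 without old array 3 and 86 without old array 4. Against these limits, 57 of the genes described here passed as reported, 33 of them also with any 1 of the 8 arrays left out, and 22 of those also with the pairs as a block. These 22 were C1qa, C3, C4b, Ccdc153, Cd52, Erdr1, Hapln2, Hp, Lrmda, Neat1, Nfya, Pbk, Plac9a, Prom2, Slamf9, Spag6, Sult1c2, Tmem119, Tnc, Trem2, Wdfy1 and Zic1, and the rest of the 57 lost the call with that block.

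Of 31 complement and microglial genes 7 rose at 16 months and 0 fell. C4b, whose product is the fourth component of the cascade, read -0.41, -0.36, -0.11 and -0.08 in the young arrays and 1.13, 1.63, 1.54 and 1.64 in the old. Every old array lay far above every young array. The rise was 3.31-fold (log2 difference 1.73 ± 0.12 SE, n = 4 per group, limma adjusted p = 3.19e-08), and C4b was 1 of the 4 genes that still passed with the array pairs averaged (adjusted p = 0.00137; over all 26 alternatives 1.62e-09 to 0.213). The first C4a probe showed 0.29 ± 0.37 and the second 0.34 ± 0.32, and neither passed. C4a was named after its values were seen.

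C3, the component on which all complement pathways converge, read -1.26, -1.32, -1.51 and -1.30 in the young and -0.03, 0.09, 0.53 and 0.58 in the old arrays. Old arrays 3 and 4 were the highest, and the groups stood well apart. C3 rose 3.11-fold (1.64 ± 0.18, adjusted p = 4.96e-05), although a second, dimmer C3 probe gave 0.20 ± 0.46. C1qa, a chain of the initiator C1q, read 0.54, 0.42, 0.63 and 0.60 in the young and 1.15, 1.09, 1.23 and 1.29 in the old arrays. These groups did not overlap and each was tight. C1qa rose 1.56-fold (0.64 ± 0.08, adjusted p = 0.000447), while its partner chains C1qb at 0.58 (adjusted p = 0.11) and C1qc at 0.45 (adjusted p = 0.0748) missed the threshold.

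**Figure D1:**
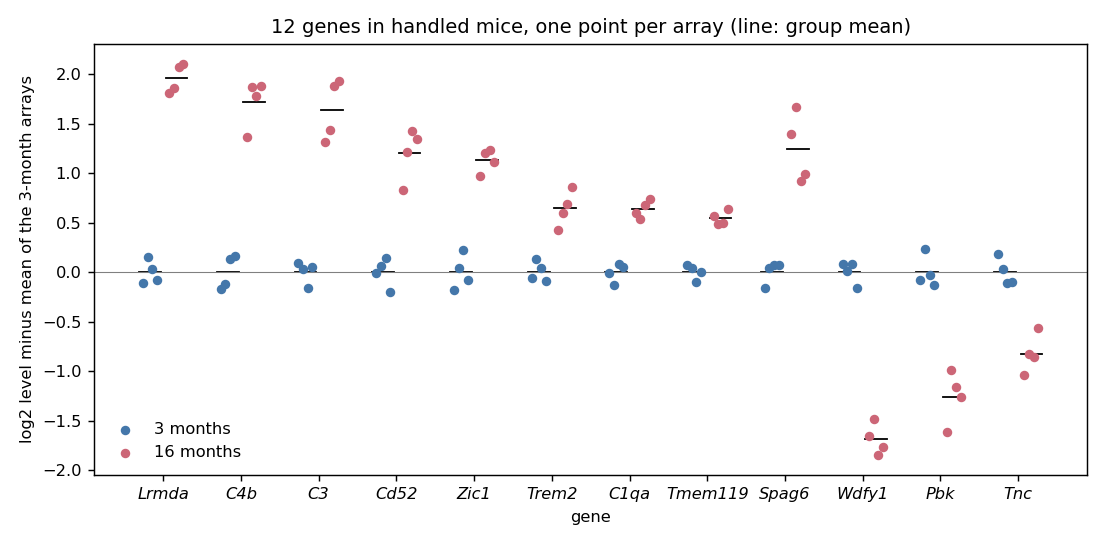
Level of 12 genes in each of the 8 handled mice, as log2 level minus the mean of the 3-month arrays; each point is 1 array, blue for 3 months and red for 16 months, and lines are group means. In each of the 12 genes the 4 old arrays lie on one side of the 4 young arrays; Lrmda stands 1.97 higher and Wdfy1 1.69 lower in the old mice (log2 difference for Wdfy1 -1.69).

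Receptor and identity genes of microglia moved with complement by smaller amounts. Trem2, a lipid-sensing receptor of microglia that was named after its values were seen, read 1.82, 2.01, 1.92 and 1.79 in the young and 2.31, 2.48, 2.57 and 2.74 in the old arrays. It rose 1.56-fold (0.64 ± 0.10, adjusted p = 0.0026), without overlap between the ages, and its second probe gave 0.68 ± 0.08. Tmem119, a surface marker of resident microglia, read 0.36, 0.33, 0.19 and 0.29 in the young and 0.86, 0.78, 0.79 and 0.93 in the old arrays. Again all old arrays lay above all young arrays, and the rise was 1.46-fold (0.55 ± 0.08, adjusted p = 0.00161). Selplg, a selectin ligand enriched in microglia, rose by 0.54 ± 0.12 (adjusted p = 0.0345), and Fcgr2b, an inhibitory receptor for antibodies, by 0.45 ± 0.11 (adjusted p = 0.0499). Both were named after their values were seen, and leaving out 1 array ended the call in 6 of 8 cases for Selplg and 7 of 8 for Fcgr2b.

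The share of 7 in 31 microglia and complement genes stands against 0.475% of all genes that rose. Counts of calls in the lists below stand against the same share, or against 0.253% for genes that fell. The lists and their members were chosen with earlier results of these data known, so such shares describe the lists and do not test them. A log2 difference above 0 was found for 30 of the 31, and their median was 0.36 against 0 for all genes. Non-overlapping arrays were found for 13, all higher (2.35% of all genes). The mean level of the list ran from -0.52 to -0.35 in the young and from -0.24 to 0.11 in the old arrays. In whole tissue, more or fewer cells of a type and more or less RNA per cell cannot be told apart. The threshold was passed by 5 members with the array pairs as a block and by 1 with the pairs averaged.

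Of 24 genes that mark activated microglia in aged and diseased brain, 4 rose and 1 fell. Cd52, a small surface protein of immune cells, read -1.51, -1.44, -1.36 and -1.70 in the young and -0.67, -0.28, -0.07 and -0.15 in the old arrays. Old array 1 was the lowest of its group and still lay above every young array. Cd52 rose 2.31-fold (1.21 ± 0.13, adjusted p = 3.73e-05). The chemokine genes Ccl4 (2.08-fold, 1.06 ± 0.18, adjusted p = 0.00453) and Ccl3 (2.51-fold, 1.33 ± 0.29, adjusted p = 0.029) rose, as did Clec7a, a receptor for fungal glucans (1.80-fold, 0.85 ± 0.18, adjusted p = 0.026). Ccl3 lost the call in 5 and Clec7a in 4 of the 8 fits that left out 1 array, and the Ccl3 difference was 0.87 with normexp background correction. With the pairs as a block Cd52 passed, and Ccl4 (adjusted p = 0.0666), Ccl3 (adjusted p = 0.137) and Clec7a (adjusted p = 0.087) did not.

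Lpl, the lipoprotein lipase, which was named after its values were seen, went the other way and fell by 0.53 (adjusted p = 0.0391), with young arrays at 1.26 to 1.67 and old arrays at 0.73 to 1.37. It was the only one of the 57 genes whose ages overlapped, since old array 2 at 1.37 lay inside the young range, and its call was lost in 6 of the 8 fits that left out 1 array. The median of the 24 activation genes was 0.33. The number that rose was 1 with the pairs as a block, 2 without young array 1, old array 3 or old array 4, and 7 without old array 1. Slamf9, an immune receptor of the signalling lymphocyte family outside these lists, rose 1.95-fold (0.96 ± 0.12, adjusted p = 0.000344) and was named after its values were seen.

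Interferon and antigen presentation genes gave fewer calls. Psmb8, a subunit of the immunoproteasome, lay at -1.10 to -0.83 in the young and -0.63 to -0.16 in the old arrays and rose by 0.56 ± 0.10 (adjusted p = 0.00807), with 0.85 ± 0.14 at a second probe. Ifit3, an interferon-induced antiviral gene, rose by 0.63 ± 0.12 (adjusted p = 0.0102), a call lost without old array 4 (adjusted p = 0.0592). These were 2 of the 36 genes of the list, of which 32 had a log2 difference above 0, with a median of 0.24. Non-overlapping higher arrays were found for 5 (2.35% of all genes). Neither passed with the pairs as a block (Psmb8 adjusted p = 0.0666, Ifit3 adjusted p = 0.0635). The class II gene H2-Aa at 0.82 (adjusted p = 0.0873) and the class I gene H2-K1 at 0.46 (adjusted p = 0.0997) missed the threshold, although another H2-K1 probe, at 0.56 ± 0.12, passed when every probe was tested (adjusted p = 0.0309). The invariant chain gene Cd74 at 0.45 ± 0.42, whose young arrays spread from -2.24 to -0.14, did not pass. Neither did B2m, the light chain of class I molecules, at 0.06 ± 0.14. Of the 19 blood cell markers 0 passed (limma; 6 at an unadjusted p under 0.05), and S100a9 of neutrophils stood at 1.46 (adjusted p = 0.0748). Ighm, an antibody heavy chain gene of that list, stood at 0.45 ± 0.15. Another Ighm probe, at 1.13 ± 0.20, passed when every probe was tested (limma adjusted p = 0.0106), and a dimmer one gave 0.09 ± 0.39.

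Astrocytes as a class differed little, and a few reactive genes were higher. Gfap, the filament gene of astrocytes, read 1.66, 1.88, 1.97 and 2.08 in the young and 2.22, 2.34, 3.00 and 2.72 in the old arrays. The ages did not overlap, but old arrays 3 and 4 lay well above old arrays 1 and 2. Gfap rose 1.59-fold (0.67 ± 0.15, adjusted p = 0.0304), its other probes gave 0.64 ± 0.15 and 0.65 ± 0.20, and the call was lost in 5 of the 8 fits that left out 1 array (highest adjusted p = 0.126) and with the pairs as a block (adjusted p = 0.106). It was the only call among 24 astrocyte markers, whose median was 0.02.

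Of 29 reactive astrocyte genes 3 rose and 0 fell, with a median of 0.19, and Psmb8 above was 1 of them. With the pairs as a block 0 passed (limma; Psmb8 adjusted p = 0.0666, Cxcl10 adjusted p = 0.0684, Il33 adjusted p = 0.0862). Cxcl10, an interferon-induced chemokine, lay at -5.10 to -4.22 in the young and -3.44 to -3.03 in the old arrays, a 2.67-fold rise (1.42 ± 0.26, adjusted p = 0.00896) that was 0.89 on the log2 scale with normexp background correction. Il33, a nuclear cytokine, lay at 1.54 to 2.26 and 2.40 to 3.11 and rose by 0.76 ± 0.16 (adjusted p = 0.0212), a call lost in 4 of the 8 fits that left out 1 array. Hp, the haemoglobin-binding protein haptoglobin, rose 2.69-fold from a low level (1.43 ± 0.17, adjusted p = 0.000152), with young arrays at -4.68 to -4.52 and old arrays at -3.34 to -2.91. It was named after its values were seen.

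Of 28 genes of oligodendrocytes and myelin 4 rose and 0 fell. Hapln2, a link protein of the matrix around nodes of Ranvier, read -1.46, -1.67, -0.84 and -1.45 in the young and -0.74, -0.19, -0.56 and -0.36 in the old arrays. Young array 3 came close to the lowest old array, and the ages did not overlap. Hapln2 rose 1.86-fold (0.90 ± 0.14, adjusted p = 0.0026). Klk6, a secreted protease of oligodendrocytes, rose by 0.83 ± 0.17 (adjusted p = 0.0184), Trf, the iron carrier transferrin, by 0.69 ± 0.15 (adjusted p = 0.0284), and Anln, a scaffold protein of myelin septin filaments, by 0.60 ± 0.12 (adjusted p = 0.0201). These were the calls of that list, of which 24 genes had a log2 difference above 0, with a median of 0.25. Non-overlapping higher arrays were found for 8 (2.35% of all genes). The mean level of the list was 0.88 to 0.98 in the young and 1.04 to 1.42 in the old arrays. Mbp, the myelin basic protein gene, at 0.37 missed the threshold (adjusted p = 0.0692). With the pairs as a block or with only the 16 control and fear-conditioned arrays fitted, 1 member passed, as without old array 3 or old array 4, and 2 passed without young array 1 or young array 4. The call was lost in 3 of the 8 fits without 1 array for Klk6, 6 for Trf and 4 for Anln. Of 16 oligodendrocyte precursor markers 0 passed (limma; 2 at an unadjusted p under 0.05).

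Of 16 genes of ciliated ependymal cells, which line the ventricle beside the hippocampus, 3 rose and 0 fell. Ccdc153 read 1.19, 1.29, 1.35 and 0.86 in the young and 2.00, 2.11, 2.31 and 2.32 in the old arrays. Each old array was above each young array, with a 2.02-fold rise (1.01 ± 0.17, adjusted p = 0.00441). Tmem212 rose 1.98-fold (0.98 ± 0.18, adjusted p = 0.00898) and Rarres2, the gene of chemerin, 1.65-fold (0.72 ± 0.12, adjusted p = 0.00441; old array 3 was an outlier spot and missing in this fit). All 16 ependymal markers measured had a log2 difference above 0, 5 had non-overlapping higher arrays (2.35% of all genes) and the median was 0.33. The mean level ran from -0.23 to 0.19 in the young and from 0.15 to 0.47 in the old arrays. Spag6, an axonemal protein of motile cilia with a close paralog in Spag6l, read -2.91, -2.71, -2.68 and -2.68 in the young and -1.35, -1.08, -1.83 and -1.76 in the old arrays. Old arrays 1 and 2 were the highest, and the rise was 2.36-fold (1.24 ± 0.14, adjusted p = 6.29e-05). With the pairs as a block Ccdc153 and Spag6 passed, and Tmem212 (adjusted p = 0.057) and Rarres2 (adjusted p = 0.0533) did not.

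The choroid plexus, which lies next to the ependyma, gave 0 calls among 28 markers (limma; 1 at an unadjusted p under 0.05) and a median of 0.12. The mean level of that list ran from 0.67 to 1.11 in the young and from 0.65 to 1.28 in the old arrays, so the ages overlapped. Ttr, its transthyretin gene, read 4.55, 4.74, 3.51 and 3.81 in the young and 3.92, 3.79, 4.45 and 4.33 in the old arrays. Arrays 1 and 2 were high in the young and low in the old group, and the difference was -0.03 ± 0.46.

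Of 36 genes of newborn neurons and dividing cells 3 fell at 16 months and 0 rose. Dcx, a microtubule protein of immature neurons, read -0.21, -0.22, -0.09 and -0.43 in the young and -0.88, -0.55, -1.12 and -0.97 in the old arrays. The ages did not overlap, and old array 2 came nearest to the young mice. Dcx fell by 0.64 on the log2 scale (SE 0.11, adjusted p = 0.00488), and its dimmer probes stood at -0.47 and -0.31. Mki67, the proliferation marker Ki-67, lay at -1.85 to -1.70 in the young and -2.53 to -2.12 in the old arrays and fell by 0.54 (SE 0.09, adjusted p = 0.00682), with a difference of -0.15 under normexp background correction. Rrm2, a ribonucleotide reductase subunit needed for DNA synthesis, fell by 0.65 (SE 0.12, adjusted p = 0.0125), but the call was lost without young array 2 (adjusted p = 0.0521) and the difference was 0.11 with the normexp background correction and -0.37 in the deposited value table.

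Pbk, a mitotic kinase outside the list, read -3.91, -3.59, -3.86 and -3.96 in the young and -5.45, -4.82, -4.99 and -5.09 in the old arrays. It was lower in every old array and 2.39-fold higher in the young (-1.25 ± 0.19, adjusted p = 0.00193), and the call held in each fit without 1 array and with the pairs as a block (adjusted p = 0.0475). It did not hold with normexp background correction, where the Pbk difference was -0.10, and the difference was -0.70 in the deposited value table. Of the 36 neurogenesis and division genes 13 had a log2 difference above 0, and the median was -0.10. Non-overlapping arrays were found for 4 that lay lower (1.66% of all genes) and 2 that lay higher (2.35%). Top2a, a topoisomerase of dividing cells, stood at -0.86 (adjusted p = 0.167). The mean level of the list was -0.66 to -0.58 in the young and -0.85 to -0.72 in the old arrays. With the pairs as a block 0 members passed (limma; Dcx adjusted p = 0.058, Mki67 adjusted p = 0.0845, Rrm2 adjusted p = 0.0788).

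**Figure D2:**
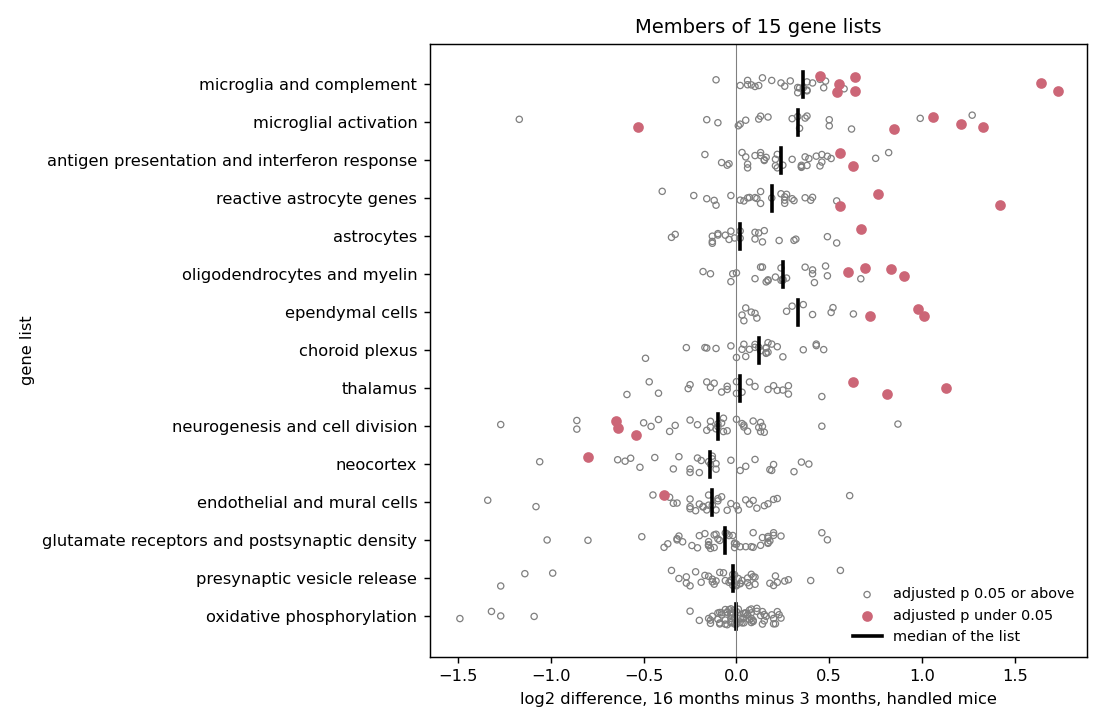
Log2 difference, 16 minus 3 months, of each measured member of 15 gene lists in handled mice; filled points have an adjusted p under 0.05, open points do not, and black bars are list medians. The medians of the microglia and complement (0.36), ependymal (0.33) and myelin (0.25) lists lie right of 0, that of the neurogenesis list (-0.10) lies left of it, and most points in every list are open.

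Synaptic and neuronal lists gave almost no calls. Of 48 glutamate receptor and postsynaptic density genes 0 passed (limma; 5 at an unadjusted p under 0.05; median -0.06), and of 46 genes of presynaptic vesicle release 0 passed (2 at an unadjusted p under 0.05; median -0.02). Gabra2, a subunit of GABA receptors, read 1.60, 1.90, 0.48 and 0.82 in the young and 0.24, -0.12, -0.09 and -0.26 in the old arrays. Young arrays 1 and 2 were much higher than young arrays 3 and 4, and all 4 exceeded the old arrays. The Gabra2 level was 2.40-fold higher in the young (-1.26 ± 0.27, adjusted p = 0.0266), with -0.94 ± 0.15 at a second probe, and it was the only call among 16 GABA receptor genes. Cort, the interneuron peptide cortistatin, rose by 0.73 ± 0.14 (adjusted p = 0.012), the only call among 25 interneuron markers. Of these 25, however, 12 had an unadjusted limma p under 0.05 (7 higher and 5 lower), beside 2519 of all 26089 genes.

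Among 30 subfield markers Bok, a CA3-enriched member of the Bcl2 family, rose by 0.50 ± 0.11 (adjusted p = 0.0279). Pak3, a kinase that regulates dendritic spines, fell by 0.51 (adjusted p = 0.0259) as the only one of 41 formin and actin genes, and its other probe gave 0.10 ± 0.17. Leaving out 1 array ended the call in 6 of 8 cases for Bok, 5 for Pak3, 4 for Gabra2 and 2 for Cort.

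Several neighbouring regions were followed by their markers. Zic1, a transcription factor of the thalamus, septum and meninges, read 1.55, 1.77, 1.95 and 1.65 in the young and 2.70, 2.94, 2.97 and 2.84 in the old arrays. Both groups were tight and far apart, and Zic1 rose 2.19-fold (1.13 ± 0.12, adjusted p = 2.62e-05; second probe 1.05 ± 0.15). Zic4, its neighbour on chromosome 9, rose by 0.81 ± 0.19 (adjusted p = 0.0438; other probe -0.07 ± 0.27) and Prkcd, a kinase of thalamic neurons, by 0.63 ± 0.14 (adjusted p = 0.0414). Each of the latter pair lost the call in 6 of the 8 fits without 1 array. Zic1 still passed with the pairs as a block, and Zic4 and Prkcd did not. These were the calls among 26 thalamus markers, whose median was 0.02 and whose mean level ran from -0.84 to -0.57 in the young and from -0.94 to -0.36 in the old arrays.

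Of 30 neocortex markers, 9 had a log2 difference above 0, 7 had non-overlapping lower arrays (1.66% of all genes) and the median was -0.14. Their mean level was -0.13 to 0.00 in the young and -0.47 to -0.13 in the old arrays. Of 20 striatum and 18 meninges markers 0 passed (limma; 1 and 0 at an unadjusted p under 0.05). Slco1a4, a transporter of brain endothelium, fell by 0.39 (adjusted p = 0.0354) as the only one of 35 vascular genes, a call lost in 6 of the 8 fits without 1 array and with the slide as a block (adjusted p = 0.053), and the Slco1a4 difference was -0.25 with normexp background correction. The part of tissue outside the hippocampus in any of the differences above was not tested.

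The gene of smallest adjusted p was Lrmda, which encodes a leucine-rich melanocyte differentiation protein (probe at chr14:23875226-23875285, mm9). It read -3.19, -2.93, -3.05 and -3.16 in the young and -1.27, -1.22, -1.0 and -0.97 in the old arrays. The gap between the ages was several times the spread within either. Lrmda rose 3.91-fold (1.97 ± 0.10, adjusted p = 1.9e-10; with the array pairs averaged 3.32e-05, and over all 26 alternatives 1.46e-11 to 0.213). Wdfy1, an endosomal adaptor of Toll-like receptor signalling (chr1:79700817-79700876, mm9), read 1.36, 1.29, 1.36 and 1.12 in the young and -0.38, -0.20, -0.57 and -0.49 in the old arrays. It was lower in all old mice, at 3.23-fold more in the young (-1.69 ± 0.10, adjusted p = 1.28e-09; 0.000284 with the pairs averaged). A second Wdfy1 probe gave -1.23 ± 0.11 and a further, dimmer one 0.48 ± 0.39.

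Other large rises came from genes with less known roles in the brain. Sult1c2, a sulfotransferase, read -1.95, -1.92, -2.54 and -2.56 in the young and -0.45, -0.27, 0.15 and 0.15 in the old arrays. Arrays 1 and 2 paired off from arrays 3 and 4 in both ages, and the ages lay apart, with a 4.41-fold rise (2.14 ± 0.25, adjusted p = 8.84e-05). Prom2, a membrane protein related to prominin, rose by 1.47 ± 0.17 (adjusted p = 0.000105; other probe 0.21 ± 0.58), or 0.79 with normexp background correction and 0.67 in the deposited value table. Cox8b, a muscle and heart subunit of cytochrome oxidase, rose by 1.53 ± 0.30 (adjusted p = 0.0153), a call lost without young array 3, old array 3 or old array 4. Neat1, the long noncoding RNA that builds paraspeckles, rose by 0.72 ± 0.11 (adjusted p = 0.0026) and was named after its values were seen.

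The level of Plac9a rose by 1.14 ± 0.12 (adjusted p = 1.78e-05), but a near-identical copy, Plac9b, may share the signal. Erdr1, a multicopy gene with no position in the probe annotation, read 3.80, 3.83, 4.72 and 4.59 in the young and 5.93, 5.98, 5.83 and 6.06 in the old arrays. Young arrays 1 and 2 were the lowest, and all old arrays were above the young ones (1.72 ± 0.23, adjusted p = 0.000477; second probe 1.37 ± 0.35). Nkx2-9, a homeobox gene, rose by 2.14 ± 0.39 (adjusted p = 0.00898) from a level that was well above background on 1 of 4 young arrays and on all 4 old arrays, so its young value is a bound, and the Nkx2-9 difference was 0.68 with normexp background correction and 0.49 in the deposited value table.

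Among the falls, Nnt, the mitochondrial transhydrogenase that is partly deleted in the C57BL/6J substrain, read 1.40, 1.32, 1.69 and 1.10 in the young and 0.33, 1.06, 0.40 and 0.49 in the old arrays. Old array 2 at 1.06 lay just below the lowest young array, and the other old arrays were far lower. Nnt fell by 0.80 (SE 0.13, adjusted p = 0.00441), 3 of its 4 probes passed in the same direction and the remaining probe gave -0.03 ± 0.28. It was named after its values were seen. Tnc, the matrix protein tenascin C, was 1.77-fold higher in the young (-0.82 ± 0.12, adjusted p = 0.00146; other probe 0.24 ± 0.39) and was the only call among 35 collagen and matrix genes. With normexp background correction the Tnc difference was -0.20. Cyp2f2, a cytochrome P450, read -3.07, -2.90, -2.01 and -1.78 in the young and -4.56, -4.46, -3.35 and -3.24 in the old arrays. Arrays 1 and 2 were lower than arrays 3 and 4 in both ages, and the groups stayed apart (-1.46 ± 0.32, adjusted p = 0.0333; call lost in 4 of the 8 fits without 1 array; -0.52 with normexp background correction).

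Nfya (a subunit of the CCAAT-binding factor NF-Y), Trim68 (a ubiquitin ligase), 2810459M11Rik and Creb3l3 (a membrane-bound transcription factor of the liver) were also among the 8 largest falls. Their log2 differences were -1.30, -1.34, -1.33 and -1.49, with adjusted p-values of 0.00679, 0.00898, 0.0125 and 0.0355. The other Nfya probe gave -0.13 ± 0.18. In each of these genes the old arrays were closer together than the young arrays, as for Creb3l3, whose young arrays lay at 1.13 to 2.72 and old arrays at 0.36 to 0.59. The Creb3l3 call was lost in 5 of the 8 fits without 1 array and with the slide as a block (adjusted p = 0.0553).

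Lists of energy, stress and signalling genes gave few calls. Of 74 genes of oxidative phosphorylation, 31 proteasome subunits, 21 clock genes, 30 heat shock genes, 27 senescence and p53 targets, 34 oxidative stress genes, 26 neurotrophin and growth factor genes and 25 cholesterol synthesis genes, 0 passed in any list (limma; 0, 0, 2, 2, 3, 3, 4 and 3 at an unadjusted p under 0.05). The same held for 76 cytosolic ribosomal genes (6), 37 histone acetylation genes (4), 33 calcium genes (4), 31 immediate early genes (3), 30 lysosome and autophagy genes (6) and 5 sex-linked genes (1). Mean levels of Y-linked genes in the old and young arrays were -0.06 and -0.12 for Ddx3y, 1.23 and 0.94 for Eif2s3y, and -1.95 and -1.58 for Kdm5d. For the X-linked gene Xist they were -2.22 and -1.96, and the sex of the mice was not tested. Fos, an immediate early gene, stood at -0.28 ± 0.29 and Arc, a synaptic immediate early gene, at -0.36 ± 0.26. The formin Fmn2 at -0.05 ± 0.12, the kinase Prkca at 0.10 ± 0.15 and the deacetylases Hdac4 at -0.04 ± 0.10 and Sirt2 at -0.07 ± 0.07 did not pass either. Plin4, a lipid droplet protein, rose by 0.69 ± 0.14 (adjusted p = 0.0201) alone among 20 glucocorticoid-induced genes, a call lost in 3 of the 8 fits without 1 array.

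The same age comparison in fear-conditioned mice, on 8 other arrays, passed for 9880 of 26089 genes (37.9%), and the difference between the contrasts passed for 6227 (23.9%). These were 6478 higher and 3402 lower in the trained contrast, and 4135 and 2092 for the difference. The median over all genes was 0.26 in trained mice and 0.23 for the difference, against 0 in handled mice. This shift is part of every single-gene value below. Of the 190 genes of the handled mice, 126 also passed in the same direction after training, 22 passed in the opposite direction and 42 did not pass. For 71 of the 190 the difference between the contrasts passed. The 190 were chosen by their handled difference, which enters this test, so that count cannot be read against the 23.9%. C4b (1.55 ± 0.12), C3 (1.73 ± 0.18) and Wdfy1 (-1.99 ± 0.10) had age differences in trained mice near those in handled mice, and their differences between contrasts did not pass. Lrmda (2.87 ± 0.10) and Cd52 (2.03 ± 0.13) differed more between ages after training. Mean Lrmda was -3.08 in young handled and -4.06 in young trained mice, against -1.12 and -1.19 in the old. For Cd52 these means were -1.50 and -2.35, against -0.29 and -0.33.

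The age difference of C1qa was 0.00 ± 0.08 and of Tmem119 0.05 ± 0.08 in trained mice. The difference between the contrasts was -0.64 for C1qa (limma adjusted p = 0.000569) and -0.50 for Tmem119 (adjusted p = 0.00315). Both genes were chosen by their handled p-value, so these p-values may be too small. Gfap stood at -0.75 ± 0.15 in trained mice, Anln at -0.96 ± 0.12 and Prkcd at -0.60 ± 0.14, each with the opposite sign to handled mice. Mean Gfap was 1.90 in young handled and 3.23 in young trained mice, against 2.57 and 2.47 in the old. For Anln these means were -2.65 and -1.11, against -2.05 and -2.07. Prkcd was higher in trained than in handled mice at both ages. Nfya, Trim68, 2810459M11Rik and Creb3l3, lower in old handled mice, were higher in old than in young trained mice, by 1.62 for Nfya, 1.70 for 2810459M11Rik and 2.28 for Creb3l3. The choroid plexus gene Ttr moved with the trained contrast, at 4.63 ± 0.46, and its part in these differences was not tested.

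**Figure D3:**
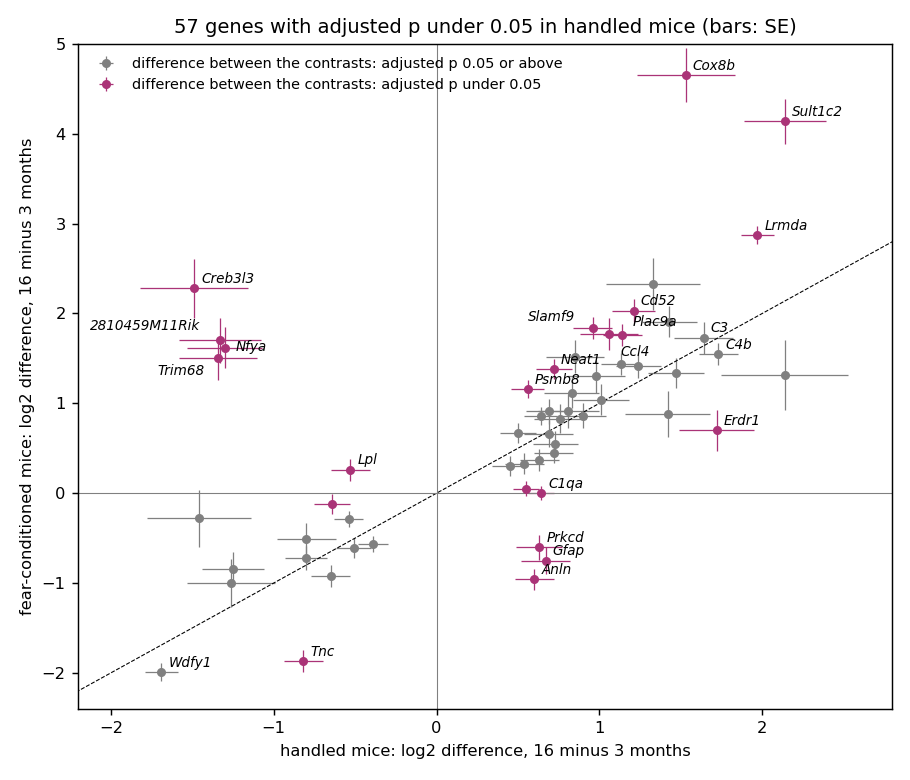
Age difference (log2, 16 minus 3 months) in handled mice on the horizontal axis and in fear-conditioned mice on the vertical axis for 57 genes past the threshold in handled mice; bars are SE, the dashed line marks equal differences, and purple points are genes whose contrasts differ at an adjusted p under 0.05. C4b, C3 and Wdfy1 lie near the dashed line, whereas Creb3l3 and Cox8b lie far above it and Gfap, Anln and Prkcd lie below 0 on the vertical axis.

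**Figure D4:**
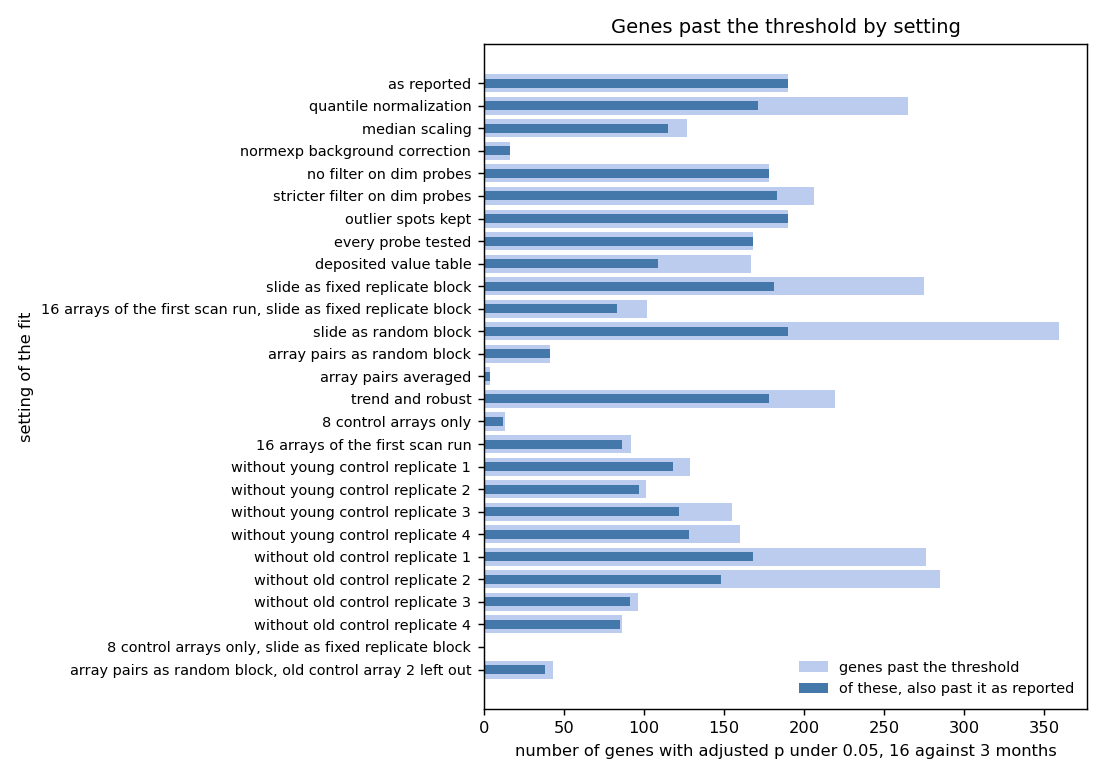
Number of genes with an adjusted p under 0.05 between handled mice of 16 and 3 months under each setting of the fit (light bars), and how many of those also passed as reported (dark bars). The count is 190 as reported, 359 with the slide as a random block, 41 with array pairs as a random block, 4 with pairs averaged and 0 in the 8 control arrays alone with the slide as a block.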

How the data were processed

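Hippocampal RNA of 24 mice in 6 groups of 4 was hybridised to Agilent 1-colour arrays, and 8 handled controls were compared here. The authors deposited 1 scanner file per array with the processed signal intensity of each spot, made with Agilent Feature Extraction 9.5.3.1 per the file headers. The submitters' processing notes also name limma. The authors' deposited value table, used as an alternative, holds values taken as log2 from the values themselves: each column follows the rank order of its array's signal and all medians are 8.57. Its centring and normalization are not given in the sources used here.

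From each log2 processed signal the 75th percentile of its array was subtracted. Control spots were dropped, outlier spots counted as missing, and repeated spots of a probe were averaged. Of 41174 probes, 38768 exceeded background well on 4 or more arrays. Gene names came from the files and from a RefSeq gene table (33070 probes matched), and the brightest probe stood for a gene, which left 26089 genes, 19194 with a symbol. Positions are those of the probe annotation in build mm9. Group means of all 24 arrays were fitted in limma 3.58.1 (R 4.3.3) with 18 residual degrees of freedom, with two-sided tests, p-values adjusted over all genes by Benjamini-Hochberg and 0.05 as threshold. The procedure was also tested on simulated data, where 22% of log2 changes of 0.5 and 78% of changes of 1 were recovered. Of 154 calls there, 12 fell on unchanged genes. The simulated arrays were independent, so the closeness of array pairs was not part of that test. A count of 0 calls in a list can thus hide small changes.

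The members and the 38 gene lists were chosen with earlier results of these data known. The genes named are up to 8 genes that rose most and 8 that fell most (with a symbol, and with all arrays of 1 age or both well above background), up to 4 genes per list in order of adjusted p, a panel of 12 genes, and the 10 genes of smallest adjusted p; 9 further genes were named after their values were seen. Not every gene that met this rule is reported here. Alternatives were normalization, background correction, filters, outlier spots, probe choice, the deposited values, slide and array pairs as blocks, the arrays fitted, the variance model and each array left out. A further 3 alternatives (the 8 controls or the 16 control and fear-conditioned arrays with the slide as a block, and array pairs as a block without old array 2) were chosen after seeing the data.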

Additional observations from a re-analysis of the deposited data

Results flagged for a closer look

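In Spag6, young array 1 at -2.91 lay apart from the other young arrays (-2.71 to -2.68), with a gap of 0.88 of the group's range. Chance marks about 1 in 20 groups in this way, and 67 genes were examined in 2 groups each.

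The age difference in trained mice differed from that in handled mice for 27 of the 67 genes described, by a limma test of the difference at an adjusted p under 0.05, beside 23.9% of all genes. Many of the 67 were chosen by their handled difference, which enters this test, so the shares cannot be compared. The median of trained minus handled over all genes was 0.23, and it was not subtracted from the values below. As trained minus handled, the microglial and immune genes gave C1qa -0.64, Tmem119 -0.50, Cd52 0.82, Ccl4 0.71, Lpl 0.80, Psmb8 0.60 and Slamf9 0.88. The astrocyte, myelin, neuronal and matrix genes gave Gfap -1.42, Anln -1.56, Dcx 0.52, Prkcd -1.23 and Tnc -1.05. The remaining strongly changed genes gave Lrmda 0.90, Plac9a 0.62, Sult1c2 2.00, Erdr1 -1.01, Cox8b 3.11, Nfya 2.92, Trim68 2.84, 2810459M11Rik 3.04, Creb3l3 3.76 and Neat1 0.66. Fmn2 gave -0.84, Prkca -1.43, Ttr 4.66, Hdac4 -1.18 and Sirt2 -0.74, none of which passed in handled mice.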

How the results depend on the processing

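The count of 190 genes was not stable over the settings. It was 16 with normexp background correction (which moved the median of all genes by 0.19), 41 with array pairs as a random block, 43 with that block and old array 2 left out, 4 with pairs averaged, 13 with the 8 controls only, 92 with 16 arrays and 359 with the slide as a random block; the cause was not tested. Arrays with the same number lie on the same slide among the control and fear-conditioned mice. Same-numbered arrays of the ages had deviation correlations of 0.46, -0.03, -0.42 and 0.23, which differ in sign between slides. The correlation within slides that the random block estimated was 0.19. The slide as a fixed replicate block (further slides hold the remaining groups) gave 275 genes over all 24 arrays, 102 over 16 arrays and 0 over the 8 controls (1253 at an unadjusted p under 0.05). Without 1 array the count ran from 86 to 285, and it fell to 101 without young array 2, 96 without old array 3 and 86 without old array 4. The share of calls that were higher was 49.5% without old array 2 and 79.2% without young array 2, against 65.3% as reported. After training the count was 5486 with normexp and 6428 with pairs averaged (9755 to 10699 without 1 array), and for the difference 2011 and 2325 (5418 to 6747). With normexp 205 genes separated and 7127 had the same sign on all slides.

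Microglia and complement members that rose numbered 2 with normexp, 1 with pairs averaged, 2 in the controls only, 0 there with the slide and 4 with pairs as a block without old array 2 (5 to 9 without 1 array). In the same order activation members numbered 1, 0, 1, 0 and 2, with 1 for the pair block (2 to 7). Myelin members numbered 1, 0, 0, 0 and 1, with 1 for the pair block, 2 with quantile normalization, 7 with the slide as a random block and 1 with 16 arrays (1 to 6). Ependymal members numbered 0, 0, 0, 0 and 0, with 1 for the pair block (3 in each fit without 1 array). Neurogenesis members that fell numbered 0 with normexp, pairs averaged, the pair block, the controls only and the controls with the slide, and 1 with 16 arrays and the slide (2 to 4). The medians of the microglia (0.31 to 0.44), myelin (0.19 to 0.32), ependymal (0.26 to 0.44) and neurogenesis (-0.14 to -0.01) lists kept their sign in all 26 alternatives.

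Of 1741 values of single genes, 1271 kept direction and side of the threshold, 457 lost the call and 13 changed sign. With normexp Rrm2 was 0.11, B2m -0.06, Fmn2 0.05 and Fos 0.02. Ttr was 0.10, 0.16, 0.04 and 0.08 without young array 1, young array 2, old array 1 and old array 2 (range over the 8 arrays -0.24 to 0.16), Prkca -0.07 without old array 2 (-0.07 to 0.23) and Hdac4 0.01 without old array 4 (-0.11 to 0.01). With the pair block and no old array 2, B2m was -0.01, Prkca -0.02 and Ttr 0.04. Signal over background limits Nkx2-9 most.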
